A study of Homo sapiens with 18 samples.

Results

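The response of 2 acute myeloid leukemia (AML) cell lines to 24 h of IACS-010759 (IACS), a small-molecule inhibitor of mitochondrial complex I, was compared gene by gene to find transcripts that responded differently in MV4-11 and THP1. For each gene the difference was the MV4-11 response (24 h of IACS minus DMSO) minus the THP1 response, on a log2 scale. Genes were admitted if they had a mean of at least 1 TPM (reads per gene length, scaled to a fixed total per library) in each cell line, which left 12575 of the 45372 gene symbols in the deposited table. The difference was tested in 12 of the 18 libraries of the series, and 16 of the 12575 genes passed. MV4-11 carries a *KMT2A-AFF1* fusion and an internal tandem duplication of *FLT3*, and THP1 carries a *KMT2A* rearrangement with mutated *NRAS*. The cells received either the DMSO vehicle or 50 nM IACS for 24 h, with 3 independent replicates per cell line and treatment. The other 6 libraries, from cells kept for 8 h in 50 nM of the compound, did not enter that test. They are given side by side and in a second fit of all 18 libraries. Neither the labels nor the study's methods state at which time the DMSO cells were collected. Each group is a single cultured line, so a difference between the lines cannot be told apart from any other difference between those cultures.

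Complex I oxidizes NADH and feeds electrons into the respiratory chain. Cells in which it is blocked lean on glycolysis and run short of aspartate and asparagine, and a mitochondrial stress signal (the protease OMA1, its substrate DELE1 and the kinase HRI, encoded by *EIF2AK1*) leads to translation of ATF4, a transcription factor that turns on amino acid synthesis, transport and tRNA charging. Glycolytic intermediates are also read by MondoA (*MLXIP*), which with its partner MLX turns on *TXNIP* and *ARRDC4*, alpha-arrestins that restrain glucose uptake.

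In these 12 libraries the annotated genes carried an estimated 21.7 to 28.5 M reads per library (median 23.7 M). The 5 most abundant noncoding RNAs took 42.9% to 60.1% of the TPM. They took 47.3% to 49.7% in MV4-11 with DMSO and 42.9% to 47.9% after 24 h of IACS, against 46.3% to 55.8% and 51.4% to 60.1% in THP1. Libraries were therefore rescaled by the median of ratios, and every level below is a rescaled TPM. Without rescaling, the median difference of all genes moved from -0.01 to 0.20. Of the markers fixed for myeloid leukemia, 7 of 7 had at least 1 TPM in both lines. Lymphoid markers reached that level for 0 of 6 genes in MV4-11 and 1 of 6 in THP1, with *CD3E* and *MS4A1* at 0 in MV4-11 and at means of 0.0115 and 0.0074 TPM in THP1. Erythroid and megakaryocytic markers reached it for 2 of 6 in MV4-11 (*EPOR* at 11.3 and *ITGA2B* at 7.87 TPM) and 1 of 6 in THP1 (*EPOR* at 5.23 TPM), with *HBB* and *PF4* at 0 in both. Epithelial and fibroblast markers reached it for 1 of 6 in MV4-11 (*KRT18* at 2.41 TPM) and 0 of 6 in THP1. Bulk RNA cannot tell a changed share of cells in a state from changed RNA per cell.

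Of the 16 genes, 11 responded higher in MV4-11 (0.0875% of the genes tested) and 5 lower (0.0398%), by limma with the p adjusted over all genes (Benjamini-Hochberg) under 0.05 and the responses more than 1.5-fold apart. The adjusted p of these genes lay between 0.00983 and 0.0494, and the size of their differences between 0.61 and 1.65 on the log2 scale. In 14 of the 16, the response had opposite signs in the 2 lines, 9 with MV4-11 above and 5 with MV4-11 below 0, and in 9 of these 14 the unadjusted limma p was under 0.05 in each line. The other two, *TXNIP* and *FTH1*, were below 0 in both lines and lower in THP1. In all 16, no replicate pair of one line reached the range of the other line, a separation seen in 11.5% of all genes in the direction of MV4-11 and 14.2% in the direction of THP1.

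**Figure D1:**
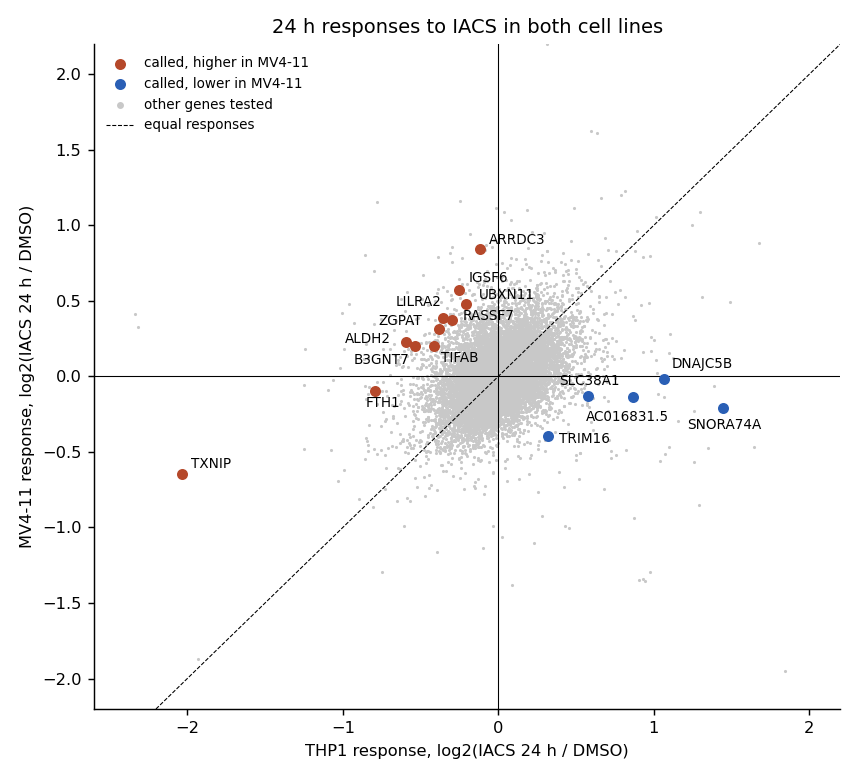
Log2 response to 24 h of IACS in THP1 (x axis) and MV4-11 (y axis) for the genes tested, with the 16 called genes in color, the dashed line at equal responses and 8 genes beyond the axes. Most called genes lie at the upper left and lower right, where the signs are opposite, and *TXNIP* lies far to the left at -2.03 in THP1 and -0.64 in MV4-11.

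Within each line, 79 genes rose (0.628%) and 28 fell (0.223%) in MV4-11, and 59 rose (0.469%) and 60 fell (0.477%) in THP1. Of these, 3 rose in both lines, 7 fell in both, and 0 were called in opposite directions. Of the 16 genes, 6 were called within THP1 and 2 within MV4-11, with *TXNIP* among both. Before adjustment for multiple tests, with p under 0.05 in limma and the 1.5-fold limit kept, 176 genes (1.40%) were higher and 77 (0.612%) lower in MV4-11.

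The number of genes called changed with the design. Without the replicate number as a block, 1 gene was called higher (*ARRDC3*) and 0 lower by limma, with 219 genes past both limits before adjustment. Deviations of same-numbered libraries correlated at 0.31, 0.08 and 0.49 in MV4-11 and at 0.16, 0.20 and 0.34 in THP1. With the block in THP1 only, a fit chosen after seeing the data, limma called 3 genes higher and 1 lower. Leaving out 1 replicate pair gave 0 calls without THP1 replicate 1 or 3 (248 and 256 genes before adjustment, by limma), 3 without THP1 replicate 2 or MV4-11 replicate 1, 2 without MV4-11 replicate 3 and 12 without MV4-11 replicate 2. A fit that added the 8 h libraries to estimate the spread called 98 genes higher (0.779%) and 25 lower (0.199%), and these 123 held all 16 genes in the same direction. The 24 h difference in that fit came from the same 12 libraries, so the shared direction was fixed in advance and is no independent support. Of the calls, 68.8% were higher in MV4-11, against 97.6% with the TPM as deposited (362 higher and 9 lower), 83.3% with upper-quartile scaling (10 and 2) and 79.7% with the 18 libraries. The share was 51.7% with a GC correction (15 and 14) and 41.7% without MV4-11 replicate 2 (5 and 7).

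**Figure D2:**
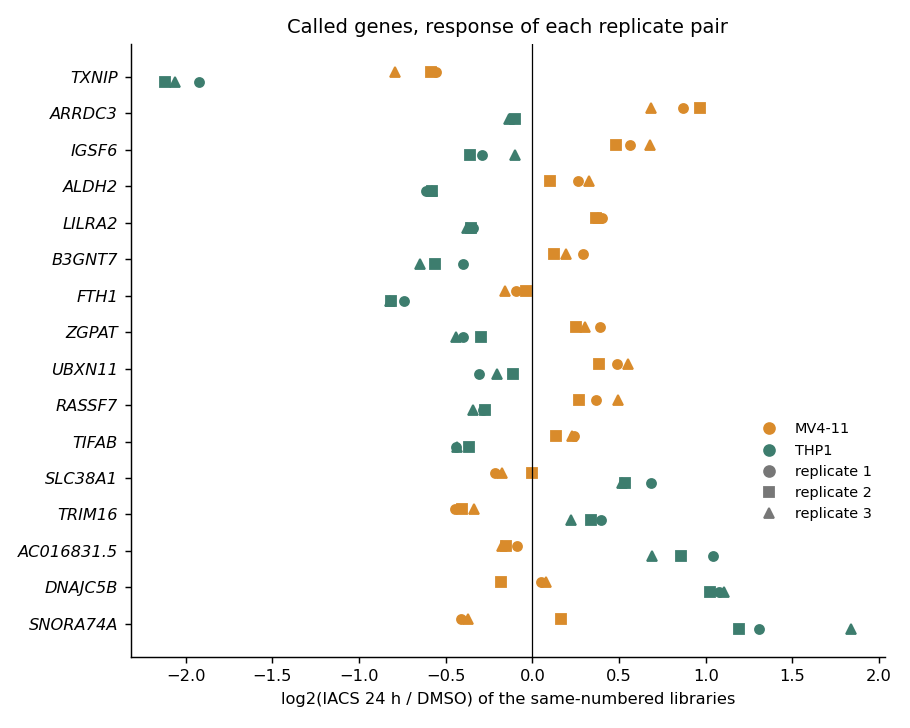
Log2 ratio of 24 h IACS to DMSO for each same-numbered pair of libraries (x axis) in the 16 called genes (y axis), with MV4-11 and THP1 in different colors and 1 symbol per replicate. In each gene the 3 MV4-11 pairs lie wholly to 1 side of the 3 THP1 pairs.

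Among the called genes, 2 alpha-arrestins held the largest differences in the direction of MV4-11, although uncalled genes had larger ones. *TXNIP* (chromosome 1, 145992435 to 145996579, minus strand, GRCh38), a thioredoxin-binding arrestin that limits glucose uptake, had 98.9, 96.3 and 129 TPM in MV4-11 with DMSO and 66.9, 63.8 and 74.4 TPM after 24 h of IACS. In THP1 it had 171, 175 and 262 TPM with DMSO and 44.5, 39.5 and 62.1 TPM after IACS. Treated libraries were below their DMSO libraries in both lines without overlap, THP1 started from the higher level, and after treatment THP1 lay below MV4-11 in every library. The log2 response was -0.64 in MV4-11 and -2.03 in THP1 (SE 0.07 each), a difference of 1.39 (SE 0.10, limma adjusted p = 0.00983). It remained at 1.35 to 1.46 with a replicate pair left out and lost the call without THP1 replicate 1 or 3.

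*ARRDC3* (chromosome 5, 91368631 to 91383317, minus strand), an arrestin that sorts membrane receptors, rose in MV4-11. It had 5.83, 5.61 and 6.90 TPM in MV4-11 with DMSO and 11.5, 11.9 and 11.7 TPM after IACS, while THP1 had 33.8, 30.4 and 31.1 TPM and then 31.0, 28.3 and 28.2 TPM. The MV4-11 groups did not overlap, and the THP1 groups did. The log2 response was 0.84 in MV4-11 and -0.12 in THP1, a difference of 0.96 (SE 0.09, limma adjusted p = 0.0286). It was the gene still called without the replicate block.

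*ARRDC4* (chromosome 15, 97960703 to 97973833), a close relative of *TXNIP*, fell in both lines. It had 6.30, 6.14 and 7.24 TPM in MV4-11 with DMSO against 3.15, 2.91 and 3.87 TPM after IACS, and 16.3, 14.6 and 17.0 against 8.98, 7.77 and 7.64 TPM in THP1. The log2 responses of -0.81 and -0.90 differed by 0.08 (SE 0.10), which did not pass (limma adjusted p = 0.705). *ARRDC1*, which drives budding of small vesicles from the cell surface, had a difference of 0.61 that passed with the 18 libraries (limma adjusted p = 0.0124) but not with the 12 (0.0787). Of the list of 8 arrestin and MondoA genes, 7 were tested. Of these, 2 were called higher and 0 lower in MV4-11, beside 0.0875% and 0.0398% of all genes. The median difference was 0.17 beside -0.01 for all genes. It was 0.15 to 0.31 with a replicate pair left out, and 0.40 with the TPM as deposited (0.20 for all genes). *MLXIP* and *MLX* themselves differed by 0.17 each (limma adjusted p = 0.538 and 0.410).

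The bases before the *TXNIP* and *ARRDC3* start sites are shown because both genes differed between the lines while MondoA acts through a known DNA element. They are from RefSeq (GRCh38.p14), 5′ to 3′ on the gene's strand, and end at the base before the start site. The *TXNIP* stretch is chr1:145996580-145996699 and the *ARRDC3* stretch is chr5:91383318-91383437, both on the minus strand. Capitals mark a match to CACGNG, any 5 bases and CACGNG, a form of the carbohydrate response element, searched on both strands.
TXNIP: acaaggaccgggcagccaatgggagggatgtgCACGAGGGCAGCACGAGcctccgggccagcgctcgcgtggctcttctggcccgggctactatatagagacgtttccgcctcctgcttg
ARRDC3: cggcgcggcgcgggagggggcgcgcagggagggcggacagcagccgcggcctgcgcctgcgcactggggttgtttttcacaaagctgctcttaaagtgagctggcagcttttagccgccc
The *TXNIP* match begins at base -88, counted from the start site. The form occurred in 20 of 35116 RefSeq windows of 250 bases before to 50 after a start (0.057%), and in 1 of the 35 named genes with a window. A gene can have several windows, so the count of genes cannot be set against the share of windows. No match was in the *ARRDC3* window, or in that of *ARRDC4*, which holds a single CACGTG at base -210, as 7.26% of windows hold that hexamer somewhere.

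**Figure D3:**
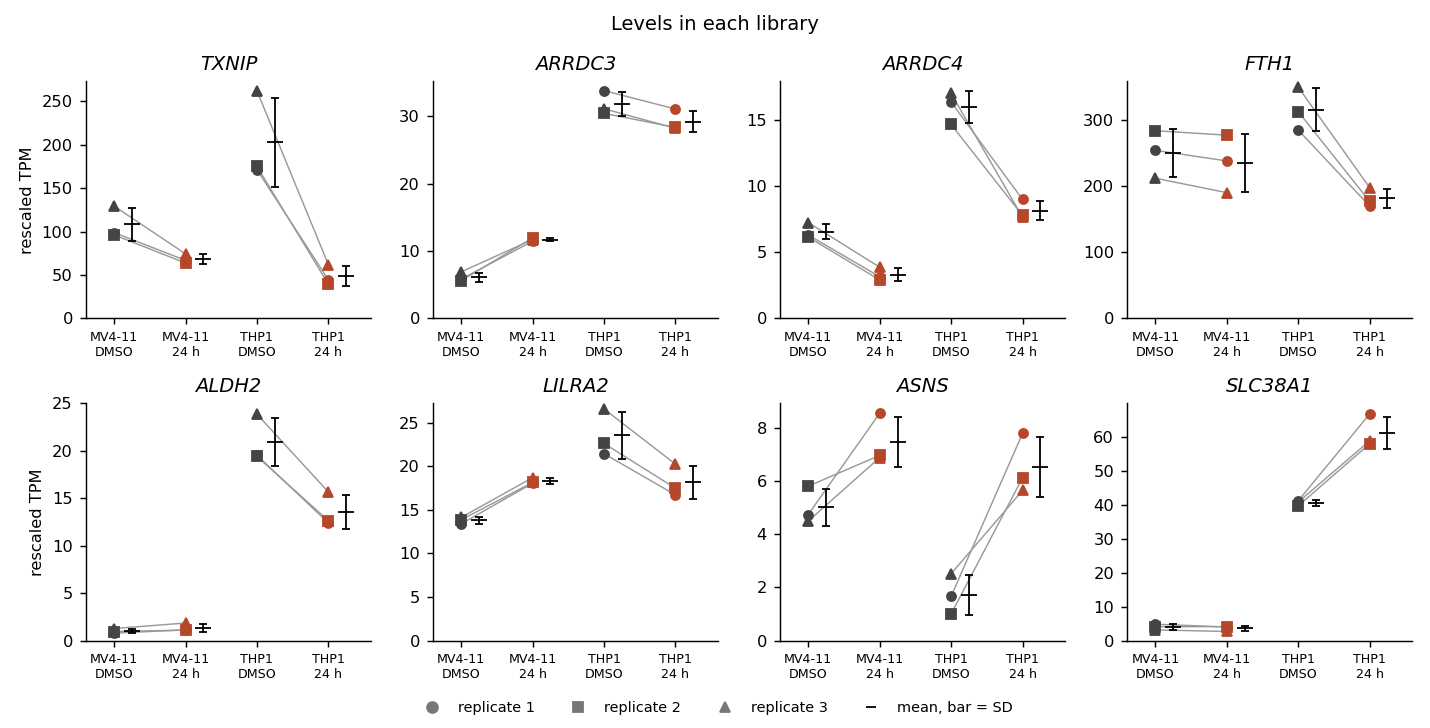
Rescaled TPM (y axis, from 0) of 8 genes in each library of 4 groups (x axis), with gray lines joining same-numbered libraries and the mean and SD beside each group. *ARRDC4* falls in both lines, *TXNIP* falls further in THP1, *ARRDC3* and *LILRA2* rise in MV4-11 and not in THP1, and *SLC38A1* rises in THP1 alone.

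Among the iron genes tested, only the ferritin heavy chain was called. *FTH1* (chromosome 11, 61959718 to 61967634), the iron-oxidizing subunit of the storage shell, had 254, 284 and 212 TPM in MV4-11 with DMSO and 238, 277 and 190.0 TPM after IACS. In THP1 it had 285, 313 and 349.5 TPM and then 169.8, 177 and 198 TPM. The THP1 groups did not overlap and the MV4-11 groups did. The log2 responses of -0.09 and -0.79 differed by 0.70 (SE 0.09, limma adjusted p = 0.0494). *FTH1* has many near-identical processed copies in the genome, so its reads may be split, and its value is uncertain for that reason.

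*TFRC*, the transferrin receptor that brings iron into the cell, fell in both lines. It had 125, 123 and 114 TPM against 87.2, 84.3 and 85.3 TPM in MV4-11, and 85.4, 81.0 and 94.7 against 48.8, 41.5 and 55.2 TPM in THP1. The responses of -0.49 and -0.84 differed by 0.35 (SE 0.09), which did not pass (limma adjusted p = 0.115). The ferritin light chain *FTL*, the most abundant of the named genes, went from a mean of 11362 ± 1045 (SD, n = 3) to 9738 ± 919 TPM in MV4-11 and from 8661 ± 632 to 9148 ± 1585 TPM in THP1, a difference of -0.29 that did not pass (limma adjusted p = 0.536). Of the iron list, 10 of 12 genes were tested and 1 was called, higher in MV4-11, beside 0.0875% of all genes. *SLC25A28* had the next largest difference, 0.57, which did not pass (limma adjusted p = 0.131). In 3 of 10 the MV4-11 pairs lay above those of THP1 and in 2 below, beside 11.5% and 14.2% of all genes. The median difference was 0.05. With the TPM as deposited it was 0.28, where that of all genes was 0.20.

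Myeloid surface genes were among those with a higher response in MV4-11. *LILRA2* (chromosome 19, 54572920 to 54590287), an activating immunoglobulin-like receptor of monocytes, had 13.4, 13.9 and 14.1 TPM in MV4-11 with DMSO and 18.1, 18.2 and 18.7 TPM after IACS. In THP1 it had 21.5, 22.6 and 26.6 TPM and then 16.7, 17.5 and 20.3 TPM. Neither line's groups overlapped, and the 2 lines, apart with DMSO, met near 18 TPM after treatment (means of 18.3 and 18.2). The log2 responses of 0.38 and -0.36 differed by 0.74 (SE 0.07, limma adjusted p = 0.0286).

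*IGSF6* (chromosome 16, 21639550 to 21652608), an immunoglobulin-superfamily receptor of myeloid cells, had 2.88, 2.76 and 3.34 TPM and then 4.72, 4.25 and 5.94 TPM in MV4-11, and 12.1, 11.9 and 15.2 TPM and then 9.77, 9.08 and 14.1 TPM in THP1. The MV4-11 groups did not overlap, and the THP1 groups did although each pair fell. The responses were 0.57 and -0.25, a difference of 0.82 (SE 0.10, limma adjusted p = 0.0494). The list of monocyte and granulocyte genes as a whole had a median difference of 0.12. That median was 0.031 without MV4-11 replicate 3, 0.072 without THP1 replicate 2 and 0.34 with the TPM as deposited (0.20 for all genes). The list had 16 of 23 tested members above 0 beside 47.2% of all genes, and 0 called with either 12 or 18 libraries. In 8 of the 23 the pairs of MV4-11 lay above those of THP1 and in 2 below, beside 11.5% and 14.2% of all genes. The largest member was *ITGAM*, the integrin CD11b, at 0.53, and the lowest *S100A9*, a calcium-binding granulocyte protein, at -0.59, and neither passed (limma adjusted p = 0.0841 and 0.216).

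*ALDH2* (chromosome 12, 111766887 to 111817532), the mitochondrial enzyme that clears acetaldehyde, was low in MV4-11, with 0.784, 0.958 and 1.27 TPM under DMSO and 1.14, 1.10 and 1.85 TPM after IACS. THP1 had 19.5, 19.4 and 23.9 TPM and then 12.4, 12.6 and 15.7 TPM, without overlap. Responses of 0.23 and -0.59 differed by 0.82 (SE 0.10, limma adjusted p = 0.0494). A value of 1 was added to the TPM before the logarithm, which compresses the change of such a low gene, and with 0.1 added the difference was 1.02 and not called.

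The remaining genes with a higher response in MV4-11 had limma adjusted p = 0.0494 each. *B3GNT7*, a glycosyltransferase of keratan sulfate chains, differed by 0.74, with mean levels of 143 ± 31.6 and 164 ± 34.7 TPM (SD, n = 3) in MV4-11 and 46.8 ± 7.90 and 31.8 ± 2.73 TPM in THP1. *TIFAB*, named after its value was seen and an inhibitor of TRAF6 signaling deleted in some myeloid neoplasms, differed by 0.61, with means of 119 ± 4.69 and 137 ± 7.59 TPM in MV4-11 and 24.1 ± 6.58 and 17.8 ± 4.67 TPM in THP1. *ZGPAT* (a zinc-finger repressor), *UBXN11* (a UBX-domain protein) and *RASSF7* (a Ras-association protein) differed by 0.69 to 0.68. In each of these, MV4-11 was above and THP1 below 0, and levels in DMSO were between 9.51 and 20.8 TPM.

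The 5 genes with a lower response in MV4-11 shared a pattern in which THP1 rose or lay above 0 and MV4-11 stayed near or below 0. *SLC38A1* (chromosome 12, 46183063 to 46270017, minus strand), a sodium-coupled carrier of glutamine and other neutral amino acids, had 41.1, 39.6 and 40.8 TPM in THP1 with DMSO and 66.7, 57.9 and 58.8 TPM after IACS. MV4-11 expressed far less, with 4.82, 4.11 and 3.16 TPM and then 4.01, 4.11 and 2.69 TPM. The THP1 groups did not overlap and the MV4-11 groups did. Responses of -0.13 and 0.58 differed by -0.71 (SE 0.09, limma adjusted p = 0.0494).

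*TRIM16*, a tripartite-motif ubiquitin ligase of the damaged-lysosome response, was below DMSO in each MV4-11 pair and above it in each THP1 pair. It had 22.3, 22.8 and 17.6 TPM and then 16.1, 16.9 and 13.8 TPM in MV4-11, and 3.94, 3.33 and 3.79 TPM and then 5.51, 4.48 and 4.58 TPM in THP1. Neither line's groups overlapped. The difference was -0.72 (SE 0.09, limma adjusted p = 0.0494), and a near-identical gene, *TRIM16L*, makes it uncertain.

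*DNAJC5B*, a cysteine-string co-chaperone, had 9.51, 9.80 and 14.8 TPM in THP1 with DMSO and 21.2, 20.97 and 32.9 TPM after IACS, without overlap, and lay between 0.837 and 1.09 TPM in MV4-11. Its difference was -1.09 (SE 0.11, limma adjusted p = 0.0327). Among the called genes the largest difference toward THP1 was that of *SNORA74A*, a small nucleolar RNA that guides pseudouridylation, with 9.64, 9.92 and 11.9 TPM and then 25.3, 23.9 and 45.2 TPM in THP1, and 33.5, 20.8 and 26.4 TPM and then 24.95, 23.4 and 20.2 TPM in MV4-11. It was -1.65 (SE 0.21, limma adjusted p = 0.0494), and rests on 19 to 96 estimated reads per library. Its relative *SNORA74B* differed by -1.20, which did not pass (limma adjusted p = 0.0729), and reads from such short RNAs with similar sequence are uncertain. The transcript *AC016831.5*, also named after its value was seen, differed by -1.002 (limma adjusted p = 0.0494) at 1.44 to 5.80 TPM.

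The ATF4 program, the stress response that complex I inhibition is known for, had the smaller median response in MV4-11, and 0 of its genes passed the test of the difference in the 12 libraries (limma). Of 22 genes in the list, 17 were tested. The median response was 0.24 in MV4-11 and 0.49 in THP1, where those of all genes were 0.0041 and 0.013. By replicate pair it ran from 0.16 to 0.28 in MV4-11 and from 0.22 to 0.64 in THP1, so the lines overlapped. The difference was above 0 for 1 of 17 members beside 47.2% of all genes. Within the lines, 1 member rose in MV4-11 and 5 rose in THP1, beside 0.628% and 0.469% of all genes. Before adjustment, 4 of 17 were lower in MV4-11 and 0 higher, beside 0.612% and 1.40% of all genes. In 5 of 17 the MV4-11 pairs lay below the THP1 pairs, beside 14.2% of all genes. The median difference of -0.28 kept its sign with a replicate pair left out (-0.45 to -0.18) and with the TPM as deposited (-0.09, beside 0.20 for all genes).

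*ASNS* (chromosome 7, 97851677 to 97872542, minus strand), which makes asparagine from aspartate and glutamine, had 4.75, 5.81 and 4.50 TPM in MV4-11 with DMSO and 8.56, 6.97 and 6.89 TPM after IACS, and 1.66, 1.00 and 2.52 TPM and then 7.80, 6.13 and 5.65 TPM in THP1. Both lines' treated libraries were above their DMSO libraries without overlap. The response was 0.49 in MV4-11 and 1.49 in THP1, and the difference of -0.998 (SE 0.25) did not pass with the 12 libraries (limma adjusted p = 0.115) or with 18 (0.0541). It was -1.37 with 0.1 added before the logarithm. THP1 started lower and ended near the MV4-11 level, with means of 6.53 ± 1.13 and 7.47 ± 0.941 TPM (SD, n = 3).

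*TRIB3*, a pseudokinase that feeds back on ATF4, had 5.81, 6.87 and 5.23 TPM and then 7.37, 6.27 and 6.56 TPM in MV4-11, and 15.6, 17.0 and 25.8 TPM and then 47.2, 39.2 and 39.3 TPM in THP1. The THP1 groups did not overlap and the MV4-11 groups did. Its difference of -0.94 (SE 0.23) did not pass (limma adjusted p = 0.115), nor did that of *SESN2*, an mTORC1 inhibitor, at -0.76 (limma adjusted p = 0.198). *ATF4* itself went from 169.7, 183 and 172 to 235, 219.8 and 247 TPM in MV4-11 and from 138, 135 and 135 to 257, 236 and 178 TPM in THP1, without overlap in either line, a difference of -0.28 (SE 0.15, limma adjusted p = 0.354). *CHAC1*, which degrades glutathione, rose in both lines by 1.00 and 1.24, and *DDIT3*, the stress factor CHOP, had responses of 0.48 and 0.50. Of the upstream relay, *DELE1* differed by 0.19 and *EIF2AK1* by -0.01, and neither passed (limma adjusted p = 0.245 and 0.966).

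Genes of amino acid supply were mixed. The 12 genes of asparagine, aspartate and pyrimidine synthesis were all tested, 0 were called by limma, and the median difference was 0.0094 with 6 of 12 above 0, from -0.998 for *ASNS* to 0.42 for *SLC1A3*, an aspartate and glutamate carrier (limma adjusted p = 0.101). Of 12 amino acid transporters, 10 were tested. Of these, 1 was called lower in MV4-11 (*SLC38A1*) and 0 higher, beside 0.0398% and 0.0875% of all genes. The median difference was -0.34. In 6 of 10 the MV4-11 pairs lay below those of THP1, beside 14.2% of all genes. *SLC7A5*, the large neutral amino acid exchanger LAT1, had 26.5, 30.3 and 25.4 TPM and then 50.0, 51.1 and 29.1 TPM in THP1, with the third treated library below the highest DMSO library. MV4-11 had 61.7, 71.0 and 64.0 TPM and then 58.7, 59.8 and 59.3 TPM. Its difference of -0.75 (SE 0.17) passed with the 18 libraries (limma adjusted p = 0.0311) but not with the 12 (0.106). *SLC36A1*, a lysosomal proton-coupled carrier, was the highest of the list at 0.10.

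Of the 12 serine and one-carbon genes, all were tested and 0 called, with a median difference of -0.29. Their median response was -0.06 in MV4-11 and 0.39 in THP1. Within the lines, 3 were called up in THP1 and 1 in MV4-11, beside 0.469% and 0.628% of all genes. *ALDH1L2*, which oxidizes 10-formyltetrahydrofolate in mitochondria, had 10.004, 9.57 and 11.4 TPM and then 22.5, 22.8 and 16.7 TPM in THP1, and 5.17, 5.01 and 4.84 TPM and then 5.79, 5.84 and 5.50 TPM in MV4-11. Neither line's groups overlapped, and the difference of -0.77 (SE 0.17) passed with the 18 libraries (limma adjusted p = 0.0249) but not with the 12 (0.0942). *PHGDH*, the first enzyme of serine synthesis, rose in both lines, by 0.96 and 0.89 (limma adjusted p of the difference 0.868). With the 18 libraries, limma also called *GARS* (glycyl-tRNA synthetase, -0.64, adjusted p = 0.0391), *GPT2* (mitochondrial alanine aminotransferase, -0.63, 0.0430) and *GRB10* (an adaptor of the insulin receptor, -0.81, 0.0145) lower in MV4-11. *BCAT1*, the cytosolic branched-chain aminotransferase, was just outside at -0.64 (limma adjusted p = 0.0507).

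Stretches before 3 of these genes are shown because ATF4 binds a composite element with a TGATGNAA core. They are from RefSeq (GRCh38.p14), 5′ to 3′ on the gene's strand, with matches to TGATGNAA on either strand in capitals. *ASNS* is chr7:97872409-97872508 (minus strand), *GARS* is chr7:30594778-30594877 (plus strand) and *SLC38A1* is chr12:46266507-46266606 (minus strand), of which the last 10 bases follow the start site.
ASNS: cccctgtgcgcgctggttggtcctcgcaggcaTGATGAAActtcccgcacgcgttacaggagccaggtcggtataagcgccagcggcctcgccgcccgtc
GARS: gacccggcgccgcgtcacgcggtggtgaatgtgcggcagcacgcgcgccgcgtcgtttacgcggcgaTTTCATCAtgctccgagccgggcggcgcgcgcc
SLC38A1: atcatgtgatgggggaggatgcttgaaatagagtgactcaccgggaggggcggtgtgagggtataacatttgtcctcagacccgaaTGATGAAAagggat
The matches begin at bases -68, -33 and -4 from the start sites shown, and that of *GARS* reads on the opposite strand. For a gene with several annotated starts, a window that held a match was taken, so the match helped to choose the start site. Those shown for *GARS* and *SLC38A1* lie inside the genes, whose outermost starts are at 30580533 and 46270017. The core was found in 3.62% of the 35116 windows and in 6 of the 35 named genes with a window, the others being *CHAC1*, *BCAT1* and *DNASE2*. A gene was counted if any of its windows matched, so the count of genes cannot be set against the share of windows. *ASNS* and *CHAC1* were also among the fixed genes. Of the 6 genes, *CHAC1* had a difference of -0.24 that did not pass (limma adjusted p = 0.718). *DNASE2*, a lysosomal nuclease, had the higher response in MV4-11, by 0.81 (limma adjusted p = 0.0287 with the 18 libraries and 0.108 with the 12). Its level was low in MV4-11, with means of 1.52 TPM in DMSO and 2.66 TPM after IACS, against 20.2 and 16.3 TPM in THP1. The MV4-11 pairs stood at 0.76, 0.04 and 0.73.

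**Figure D4:**
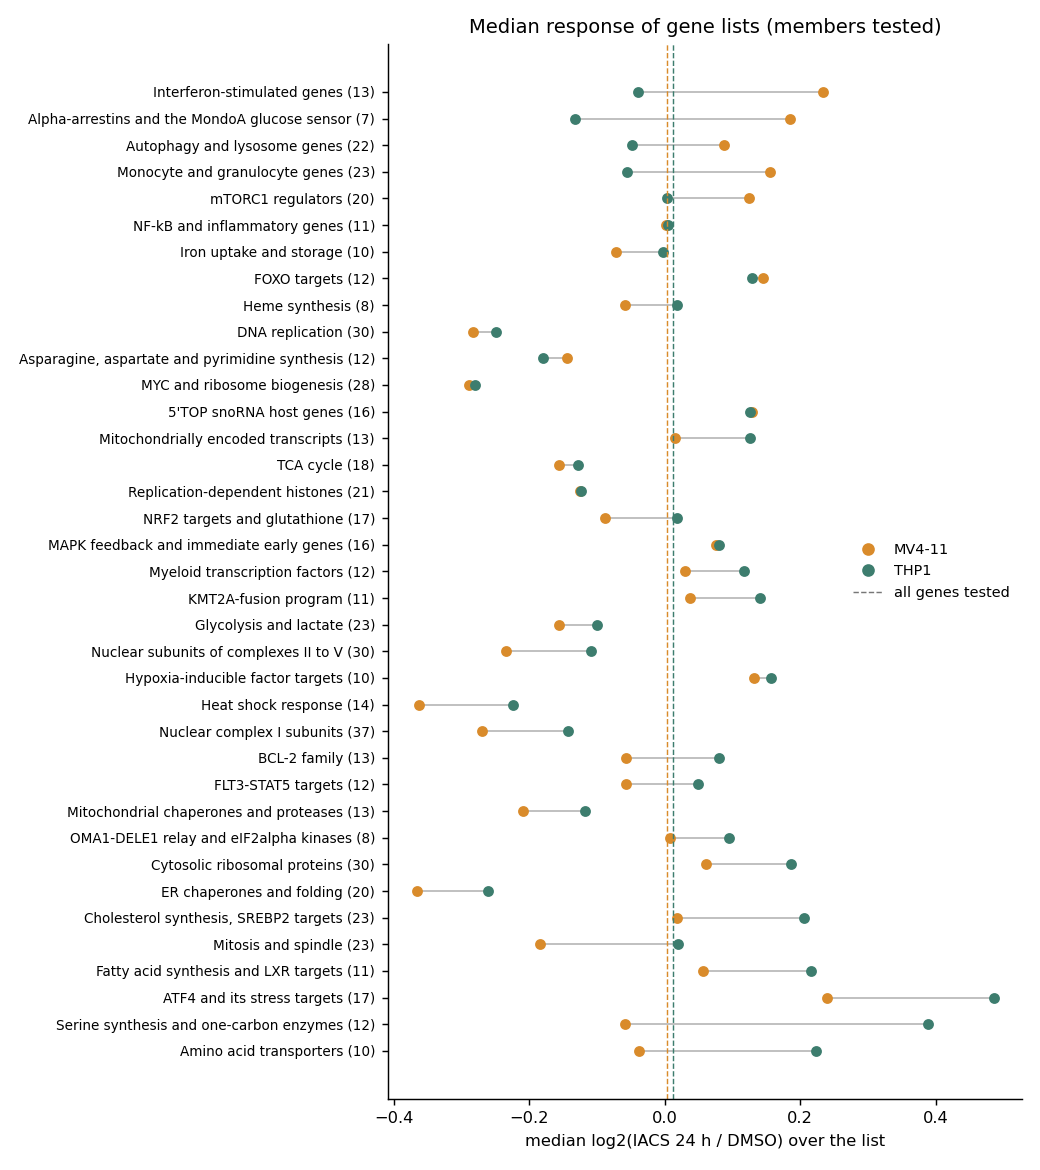
Median log2 response over the tested members of gene lists (number in brackets) in MV4-11 and THP1, ordered by the median difference, with the medians of all genes dashed. The ATF4 list lies at 0.24 and 0.49, to the right of all genes in both lines, and the serine and one-carbon list at -0.06 and 0.39.

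Across the 40 lists, 5 held a called gene and 11 a gene called with the 18 libraries. Some genes are in several lists, and the 5 lists held 4 of the 16 called genes. Of 14 genes of the FLT3 and STAT5 axis, 12 were tested, 0 were called and the median difference was -0.11. It was between -0.24 and -0.02 with a replicate pair left out, and 0.11 with the TPM as deposited (0.20 for all genes). *SOCS2*, a STAT5-induced brake on cytokine signaling, was the lowest, with 1.07, 1.29 and 1.24 TPM and then 2.78, 2.26 and 2.27 TPM in THP1, without overlap, and means of 8.91 ± 0.115 and 8.59 ± 0.973 TPM (SD, n = 3) in MV4-11. Its difference of -0.69 passed with the 18 libraries (limma adjusted p = 0.0180) but not with the 12 (0.0895).

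*CDKN1A*, the cell cycle inhibitor p21, had 6.13, 7.15 and 8.75 TPM and then 8.84, 9.39 and 13.7 TPM in THP1, each pair higher and the groups apart, and means of 47.5 ± 3.55 and 49.0 ± 1.85 TPM in MV4-11. Its difference of -0.42 did not pass (limma adjusted p = 0.0942). Of 16 BCL-2 family genes, 13 were tested and 0 called, with *BAX*, a pore-forming death effector, highest at 0.23 and *BBC3*, the death activator PUMA, lowest at -0.45. *MCL1*, the survival factor, had 78.4, 81.9 and 80.5 TPM and then 76.3, 76.4 and 77.9 TPM in MV4-11, and 135, 138 and 135 TPM and then 149, 137 and 146 TPM in THP1, a difference of -0.14 (SE 0.08, limma adjusted p = 0.387).

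Lipid synthesis genes leaned toward THP1. Of 11 tested fatty acid and LXR genes, 1 had a difference above 0, the median was -0.25 and 0 were called. *SCD*, the stearoyl-CoA desaturase, had 82.9, 95.3 and 183 TPM and then 138, 129 and 229 TPM in THP1, overlapping, with replicate 3 high in both groups, and means of 59.8 ± 10.4 and 53.3 ± 13.1 TPM (SD, n = 3) in MV4-11. Its difference of -0.67 passed with the 18 libraries (limma adjusted p = 0.0316) but not with the 12 (0.0807). The list's median was -0.02 with the TPM as deposited, and that of the 23 tested cholesterol genes turned from -0.18 to 0.04. Both stayed below the median of all genes, which moved to 0.20. The lower responses in MV4-11 nearest to passing included *PRDX4* (an endoplasmic reticulum peroxiredoxin, -0.65), *GCLM* (a glutathione synthesis subunit, -0.61), *NR1D2* (a clock repressor, -0.79) and *PRKCQ* (a protein kinase C, -0.74), with limma adjusted p of 0.0729 to 0.0807 in the 12 libraries. *PINK1*, a mitophagy kinase, was the lowest FOXO target at -0.52 (limma adjusted p = 0.115).

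Genes of the inhibited enzyme and of growth held 0 calls by limma in the difference. The 13 mitochondrially encoded transcripts were all tested and had a median difference of -0.02, which moved between -0.33 and 0.41 with a replicate pair left out. Before adjustment 2 were higher and 1 lower in MV4-11, beside 1.40% and 0.612% of all genes. Among its complex I subunits *MT-ND3* stood at 1.42 with its MV4-11 pairs above those of THP1, and *MT-ND6* at -1.13 with overlapping pairs (limma adjusted p = 0.143 and 0.210). All 37 nuclear-encoded complex I subunits were tested and 0 were called by limma, with median responses of -0.27 in MV4-11 and -0.14 in THP1. By replicate pair these ran from -0.39 to -0.07 in MV4-11 and from -0.21 to -0.11 in THP1, so they overlapped. The median difference was -0.11, with 13 of 37 differences above 0. That median turned to 0.12 with the TPM as deposited, where the median of all genes moved to 0.20, so it stayed below that of all genes. For 30 nuclear subunits of complexes II to V the medians were -0.23 and -0.11, and the pairs overlapped (-0.39 to -0.05 and -0.18 to -0.06). The median difference of these subunits turned from -0.10 to 0.13 with the TPM as deposited, also below that of all genes. DNA replication genes (30 tested) had medians of -0.28 and -0.25, genes of MYC and ribosome biogenesis (28 tested) of -0.29 and -0.28, and 0 of either list were called. Mitosis and spindle genes had a median of -0.18 in MV4-11 and 0.02 in THP1, with overlapping pair medians (-0.23 to -0.03 and -0.06 to 0.08). Of their 23 differences, 2 were above 0 and 0 were called. Their median difference turned from -0.19 to 0.04 with the TPM as deposited, again below that of all genes. Among chaperones of the endoplasmic reticulum, 3 of 20 fell in MV4-11 and 4 in THP1, beside 0.223% and 0.477% of all genes, and 0 differed by the test. The study carried 35 transcripts into its guide library, a choice made on these samples and so not independent, and 28 were tested. Of these, 2 were called higher in MV4-11 and 0 lower, beside 0.0875% and 0.0398% of all genes. The median difference was -0.02.

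Transcript GC content moved with the differences. Over the 11168 tested genes with an annotated GC content (88.8%), the Spearman correlation of the difference with GC was 0.37, a description across genes, which are not replicates and share the same libraries. Median differences ran from -0.10 in the fifth of genes with the lowest GC to 0.10 in the fifth with the highest. Per replicate pair, the correlation of the response with GC was 0.23, -0.09 and 0.39 in MV4-11 and -0.06, -0.06 and -0.38 in THP1. The called genes had a median GC of 53.4% if higher in MV4-11 and 45.9% if lower, beside 48.8% for all genes, and the genes called higher with the 18 libraries had 59.1%. With the GC trend of each library removed, a correction chosen after seeing the data, 15 genes were called higher and 14 lower by limma, and 11 of the 16 were among them. The part of GC in any single result was not tested beyond that fit.

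**Figure D5:**
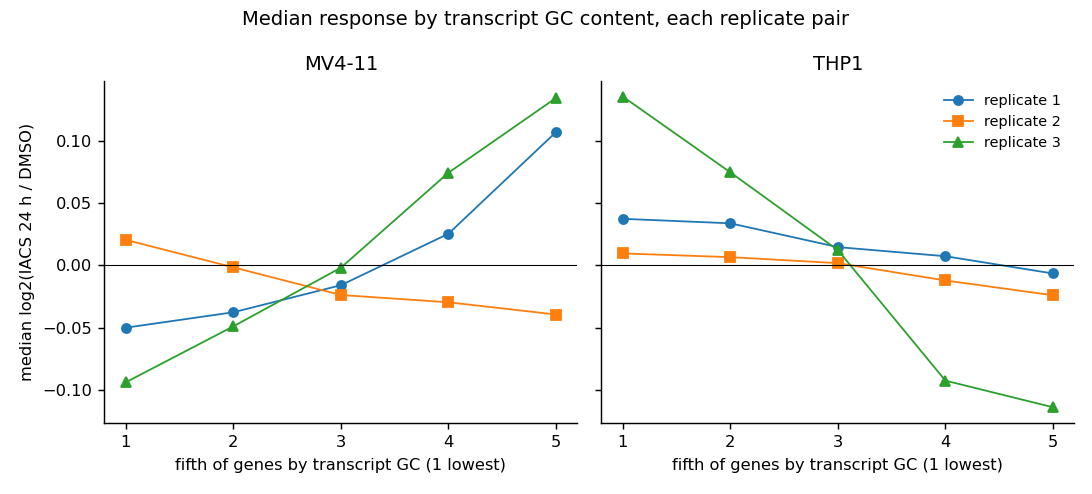
Median log2 response (y axis) in 5 equal groups of genes ordered by transcript GC content (x axis), for each replicate pair of MV4-11 (left) and THP1 (right). In MV4-11, replicates 1 and 3 rise with GC and replicate 2 does not, and in THP1 replicate 3 falls most, from 0.14 to -0.11.

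The 8 h libraries give the earlier levels of these genes, and share their DMSO libraries with the 24 h comparison, so that both responses move with the same controls. At 8 h, 1 gene was called higher in MV4-11 (0.00795%) and 0 lower by limma with the 18 libraries, and it was *TXNIP*. It had 68.1, 61.8 and 66.7 TPM in MV4-11 and 32.7, 29.4 and 43.4 TPM in THP1, with a difference of 1.79 (limma adjusted p = 1.21e-05). *ARRDC3* was at 10.4, 11.0 and 9.86 TPM in MV4-11 at 8 h, above DMSO, and at 37.1, 34.6 and 31.3 TPM in THP1, with a difference of 0.58 that did not pass (limma adjusted p = 0.168).

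*FTH1* had 373, 303 and 387 TPM in THP1 at 8 h, overlapping with DMSO, against 169.8 to 198 TPM at 24 h. *LILRA2* had responses of 0.15 and 0.09 at 8 h beside 0.38 and -0.36 at 24 h, and *SLC38A1* of -0.06 and 0.19 beside -0.13 and 0.58. From 8 h to 24 h the fixed ATF4 genes did not all move the same way in either line. In MV4-11 all but *ATF4* and *PHGDH* stood lower at 24 h. In THP1 all but *DDIT3* and *CHAC1* stood higher, and *CHAC1* was nearly unchanged. At 8 h and 24 h in MV4-11, *ASNS* stood at 0.84 and 0.49, *TRIB3* at 0.70 and 0.15, *SESN2* at 0.54 and 0.24, *CHAC1* at 1.40 and 1.00, *DDIT3* at 0.54 and 0.48, *PHGDH* at 0.95 and 0.96, and *ATF4* at 0.30 and 0.42. In THP1, in the same order, they stood at 0.93 and 1.49, 0.90 and 1.10, 0.87 and 1.00, 1.23 and 1.24, 0.85 and 0.50, 0.42 and 0.89, and 0.51 and 0.69. The median of the ATF4 list was 0.30 at 8 h and 0.24 at 24 h in MV4-11, and 0.37 and 0.49 in THP1. The change from 8 h to 24 h was not tested between the lines.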

How the data were processed

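RNA was measured in 18 libraries, and 12 entered the main tests. All 18 entered a second fit, which gave the values marked as from 18 libraries and the test at 8 h. Per the study's methods, RNA was column-purified with DNase, made into TruSeq RNA v2 libraries and sequenced paired-end on a NovaSeq instrument, and the reads were trimmed, aligned to GRCh38 and counted in CLC Genomics Workbench. The authors deposited TPM per gene, which is not a count. The annotation release and strand setting are not given in the sources used here, so overlapping and antisense genes cannot be told apart.

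TPM were divided by median-of-ratios factors over 12486 genes, 1 was added, and log2 values were fitted in limma 3.58.1 (R 4.3.3, variance trend) with cell line by replicate as a block. Tests were two-sided, and p-values measure the spread between these independent replicates. The study's own rank test was not used, since 3 samples a group leave it little resolution across genes. The fit was tested on simulated data. Deviations of same-numbered libraries correlated at 0.31, 0.08 and 0.49 in MV4-11 and 0.16, 0.20 and 0.34 in THP1. Libraries with different numbers were not compared, so these values do not settle in which line the numbers pair libraries. Depth was estimated from the smallest TPM steps, where 601 of 793 low genes gave whole reads within 0.1, so no count test was run. Gene positions and GC content came from GENCODE 44, which matched 28806 symbols (63.5%).

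Members and lists were chosen with earlier results of these data known. Genes were named if they were among the 10 largest called differences per direction at a mean of at least 5 TPM in a group (places left over going to the smallest p beyond the fold), the 8 largest called with opposite signs, the called and extreme genes of lists with a call, or 16 fixed genes. Other genes named, among them *TIFAB*, *AC016831.5*, *ARRDC1*, *DNASE2*, *GARS*, *GPT2*, *GRB10*, *SCD*, *SOCS2*, *ALDH1L2*, *ITGAM*, *S100A9*, *BAX* and *BBC3*, were chosen after their values were seen. One gene list and the results tied to it are not reported here.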

Additional observations from a re-analysis of the deposited data

Results flagged for a closer look

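Each of the 16 called genes is listed because its 24 h response differed between MV4-11 and THP1 in a direct limma test of that difference. The differences of MV4-11 minus THP1, on the log2 scale, were 1.39 for *TXNIP*, 0.96 for *ARRDC3*, 0.82 for *IGSF6*, 0.82 for *ALDH2*, 0.74 for *LILRA2*, 0.74 for *B3GNT7*, 0.70 for *FTH1*, 0.69 for *ZGPAT*, 0.68 for *UBXN11*, 0.68 for *RASSF7* and 0.61 for *TIFAB*. Toward THP1 they were -0.71 for *SLC38A1*, -0.72 for *TRIM16*, -1.002 for *AC016831.5*, -1.09 for *DNAJC5B* and -1.65 for *SNORA74A*. The larger of the 2 responses was that of THP1 in 10 of the 16 genes and that of MV4-11 in 6. With a replicate pair left out, *TXNIP* was called in 4 of 6 fits, *ARRDC3* in 2, *ALDH2*, *LILRA2*, *DNAJC5B* and *SNORA74A* in 1 each, and the other 10 in 0.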

How the results depend on the processing

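The counts below are given as higher in MV4-11, lower in MV4-11, and called with opposite signs, beside 11, 5 and 14 as reported, with the calls within MV4-11 and THP1 (107 and 119) where they moved. Without the replicate block they were 1, 0 and 1 (70 and 65), and with the replicate block in THP1 only 3, 1 and 3. The TPM as deposited gave 362, 9 and 344 (180 and 242), and upper-quartile scaling 2 lower. Adding 0.1 in place of 1 gave 3, 0 and 2 (194 and 183). A mean of at least 10 TPM gave 34, 2 and 31 (42 and 50), and no filter 2, 1 and 1 (52 and 33). Without the variance trend they were 1, 0 and 0. All 18 libraries gave 98, 25 and 108. The replicate block with a GC correction gave 14 lower and 23 with opposite signs. Unadjusted p gave 176, 77 and 215 (185 in THP1), and the adjusted p without a fold threshold 1382 in MV4-11 and 920 in THP1. Leaving out 1 replicate pair gave 0 to 5 higher, 0 to 7 lower, 0 to 9 with opposite signs, 1 to 244 in MV4-11 and 1 to 142 in THP1. The cause of these moves was not tested. The block in THP1 only and the GC correction were chosen after seeing the data. Of the values for single genes under these settings, 588 kept direction and side of the threshold, 164 kept direction but were not called, 23 became called, and 15 changed sign without being called in either fit, 7 of them of *EIF2AK1*, 4 of *DDIT3*, 2 of *ARRDC4* and 1 each of *PHGDH* and *MCL1*. Low and short transcripts, such as *SNORA74A*, are limited by depth.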

Other observations

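Interferon-stimulated genes, which carry the antiviral state, had a median response of 0.23 in MV4-11 and -0.04 in THP1. Of 29 listed, 13 were tested and 0 were called by limma in the difference. Before adjustment 7 of 13 had a limma p under 0.05, beside 2340 of all 12575 genes, and 0 of these 7 were beyond the 1.5-fold limit. The median difference was 0.21, 9 of 13 were above 0 beside 47.2% of all genes, and 8 of 13 had the MV4-11 pairs above those of THP1 beside 11.5% of all genes. The highest were *IRF7*, a transcription factor that induces type I interferon, at 0.58, and *IFI6*, a mitochondrial interferon-induced protein, at 0.58 (limma adjusted p = 0.101 and 0.0729). Autophagy and lysosome genes (22 tested of 27) had a median difference of 0.13 and 0 called. In 18 of 22 the difference was above 0, beside 47.2% of all genes. In 7 of 22 the MV4-11 pairs were higher, beside 11.5% of all genes. The highest was *TFEB*, the main transcription factor of lysosome genes, at 0.49. These medians stand beside -0.01 for all genes, and were 0.44 and 0.33 with the TPM as deposited, where that of all genes was 0.20.

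Some genes called only with the 18 libraries are given as values, picked after these were seen and with no theme tested. *CYBB*, the catalytic subunit of the phagocyte oxidase, differed by 0.76, *LILRB4*, an inhibitory receptor of monocytes, by 0.67, and *CD84*, a homotypic adhesion receptor, by 0.64 (limma adjusted p = 0.0174, 0.0118 and 0.00832). *ASS1*, which makes argininosuccinate from citrulline and aspartate, was lower in MV4-11 by -0.67, with responses of 0.12 and 0.79 (limma adjusted p = 0.0249). *PRSS57*, a granule serine protease, was lower by -0.96, with responses of -0.36 and 0.61 (limma adjusted p = 0.0490).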
